A study of Mus musculus with 32 samples.

Results

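The region described here is the chromosome 5 neighbourhood of the gene tRNA-Phe-GAA-1-1, from 120 to 130 Mb of the mouse genome build GRCm38, in which every ATAC-seq peak was taken and ordered by its distance from that gene (chr5:125406055-125406127). ATAC-seq uses a transposase that cuts and tags open DNA, so that a peak is a stretch of accessible chromatin. Each of the 6 comparisons of a knockout with wild type had its own consensus set of peaks, and the window held 8076 of the 1040049 peaks of the 6 sets together. In the Phe11, Phe21 and Phe31 brain sets 2032, 1764 and 1714 peaks fell in the window, and in the liver sets 958, 864 and 744. The question was whether loss of a tRNA-Phe gene went with a change next to this gene, or with changes that were spread evenly over the megabases around it.

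A tRNA gene is short and is transcribed by RNA polymerase III from a promoter that lies inside the gene itself, formed of an A box and a B box. The factors bound there keep an active tRNA gene open, so that tRNA genes are among the sharpest peaks in an ATAC-seq profile. Mouse tRNA genes often lie in clusters, and several genes can decode the same codon, as the tRNA-Phe genes with the anticodon GAA do.

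The tRNA-Phe-GAA-1-1 gene is the middle member of a cluster of 5 tRNA genes. Toward lower coordinates lie tRNA-Asp-GTC-1-6 at chr5:125405607-125405678 and tRNA-Ala-TGC-2-1 at chr5:125404250-125404321, and toward higher coordinates lie tRNA-Asp-GTC-1-7 at chr5:125409016-125409087 and tRNA-Ala-TGC-4-1 at chr5:125409472-125409543. Toward higher coordinates follow Dhx37 (chr5:125413747-125434139), which encodes an RNA helicase of ribosome assembly, then Bri3bp, the long noncoding RNA gene Gm40325 and Aacs, the acetoacetyl-CoA synthetase gene of ketone body use. Scarb1 (chr5:125277087-125341094), which encodes the receptor for high-density lipoprotein, lies on the other side.

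The knockout lines were made with 1 guide RNA that matched several tRNA-Phe genes. Its target, followed by an NGG motif, occurred 7 times in the GRCm39 genome, and the chromosome 5 copy shared an unbroken run of 56 to 75 bases with each of the other 6. The site is shown because it is the only sequence known to differ between the Phe11 and wild-type mice in the window. It is given on the strand of the tRNA, from chr5:125483088-125483206 of GRCm39, a newer build than that of the peaks, so that these positions and the peak positions cannot be compared. In the upper line the capitals mark the target of the guide with its NGG, and in the lower line they mark the 20 bases that are absent from the allele sequenced in Phe11 mice.
guide target: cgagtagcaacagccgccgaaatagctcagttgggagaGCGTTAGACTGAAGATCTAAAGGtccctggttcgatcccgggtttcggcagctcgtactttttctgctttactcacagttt
absent in Phe11: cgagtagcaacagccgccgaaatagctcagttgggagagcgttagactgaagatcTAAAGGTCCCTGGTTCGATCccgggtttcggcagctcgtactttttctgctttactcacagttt
The absent bases contain GGTTCGA, the core of the B box, once on the strand shown. The same letters were found within 100 bases of the target at 6 of the 7 sites.

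All mice were males of the C57BL/6N strain, matched for age and litter, and the knockouts were homozygous for a deletion in 1 gene, here called Phe11 (genotype tRNA-Phe-GAA-1-1-/-), Phe21 (genotype tRNA-Phe-GAA-2-1-/-) and Phe31 (genotype tRNA-Phe-GAA-3-1-/-). In brain the comparisons were of 4 wild-type and 4 Phe11 libraries, of 3 wild-type and 3 Phe21 libraries and of 3 wild-type and 3 Phe31 libraries. In liver the same numbers of libraries were compared. Each line came from an edited embryo backcrossed to wild type, and only the 1-1 gene lies in the window, so that no change there is part of the Phe21 and Phe31 genotypes. Whether the chromosome 5 target was intact in them was not tested. Nuclei came from a small piece of unsorted tissue, the part of the organ is not given in the sources used here, and fewer cells of a type and less accessibility per cell cannot be told apart. The promoters of 5 liver genes (Alb, Apoa1, Apob, Serpina1a and Tat) had a peak in each liver set and in no brain set, and those of 3 neuronal genes (Syt1, Rbfox3 and Syn1) had one in each brain set, but 1 or 2 of the 3 also had one in the liver sets.

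The libraries held between 20315 and 29703 reads over 401 tRNA loci in brain and between 4719 and 23754 in liver, where whole reads could be recovered. In liver the depth differed between genotypes. It was 4719 to 5576 in the libraries labelled Phe31 against 7943 to 9329 in their wild types. It was 11278 to 18575 against 7895 to 9739 for Phe21, and 9364 to 23754 against 6186 to 9739 for Phe11. Among wild-type livers, replicates 1 and 22 differed by less than the sampling noise (chi-square per degree of freedom 0.44) and were counted as 1 sample in means. This value was 0.744 for wild-type livers 3 and 24 and 0.764 for Phe11 livers 6 and 20, which were kept apart. In 5 of the 6 comparisons the signal of the deleted gene did not overlap between genotypes and was lower in the knockout. For Phe21 this check is weak, since the counts were low. At tRNA-Phe-GAA-2-1 the Phe21 brains had normalised counts of 0 to 1.83 against 1.92 to 12.8 in wild type. The Phe21 livers had 0 to 0.602 against 1.19 to 4.2. Of the loci tested, 24.1% in Phe21 brain and 31.3% in Phe21 liver did not overlap. The exception, with overlap, was the liver of mice labelled Phe31. There tRNA-Phe-GAA-3-1 had a normalised count of 9.01 to 10.6 against 9.91 to 15.6 in wild type. At tRNA-Phe-GAA-1-1 these libraries lay between 0 and 2.25, below the range of 5.66 to 10.7 in their wild types, so that they go against their label and are called the libraries labelled Phe31 throughout. Peaks are called listed when the deposited table of differential peaks contains them, which it does at a false discovery rate of at most 0.05. The peak tables give only the authors' mean of each group on a log2 scale and no value for single libraries.

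In Phe11 liver the peaks over all 5 tRNA genes of the cluster were lower than in wild type. Of the 7 consensus peaks within 10 kb of the gene 5 were listed, all as lower (71.4%), while 2.19% of all peaks of the set were listed as lower. The peak that holds tRNA-Phe-GAA-1-1 and tRNA-Asp-GTC-1-6 spanned 2059 bases, at chr5:125404812-125406870, and its authors' mean was 7.49 in wild type and 5.69 in Phe11, a 3.48-fold lower level. The largest fall of the whole window, -2.03 on the log2 scale, was at the peak over tRNA-Ala-TGC-4-1, from 5.56 to 3.53. The peak over tRNA-Asp-GTC-1-7 went from 6.36 to 4.62.

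The remaining members were smaller. A peak of 390 bases that lies between the genes, 1.94 kb away, went from 4.15 to 2.95, and the peak over tRNA-Ala-TGC-2-1 from 5.7 to 5.02. The outermost peaks of the cluster, one at -2.66 kb with no tRNA gene and one at 5.84 kb, were not listed. Distances are given from the edge of the gene to the nearest edge of the peak, and negative ones lie toward lower coordinates. The lowered peaks began at -1.7 kb on one side and at 3.32 kb on the other, and 4 of the 5 covered a tRNA gene.

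**Figure D1:**
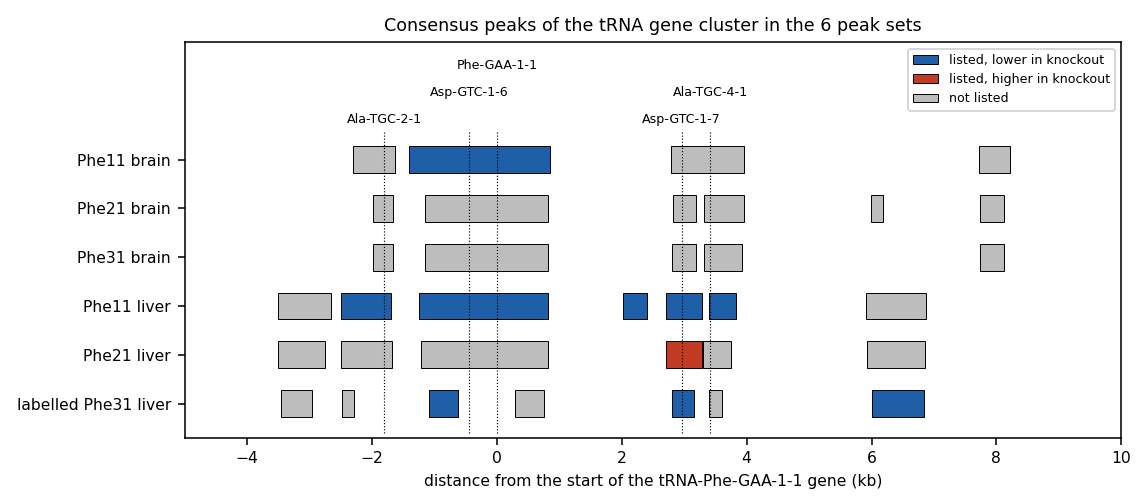
Peaks of the tRNA gene cluster in the 6 consensus sets, one set per row, against the distance in kb from the start of tRNA-Phe-GAA-1-1. Dotted lines mark the 5 tRNA genes, and the colour of a box says whether the peak was listed as lower (blue), listed as higher (red) or not listed (grey). The Phe11 liver row has 5 lowered peaks, the labelled Phe31 liver row 3 and the Phe11 brain row 1.

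The signal at the tRNA genes themselves showed the same in single libraries. It was measured as the normalised count over each gene and 50 bases on either side. At tRNA-Asp-GTC-1-7 the wild-type livers had 70.1, 65.6, 64.4 and 62.7 and the Phe11 livers 18.4, 13.5, 12.4 and 11.5. The groups did not overlap, as at 27 of the 207 loci tested in Phe11 liver. The wild-type mean was 65.2 ± 2.29 (SD, n = 3), and the Phe11 mean was 21.4% of it. The log2 difference of -2.18 ± 0.18 (SE) had the adjusted p 3.76e-18 in limma over the 207 loci tested, or 0.00045 with no limit on low loci. The limma values given for Phe11 liver count wild-type livers 1 and 22 as separate libraries unless said otherwise. With these averaged and no batch term the log2 difference at this locus was -2.17 ± 0.2 (SE).

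The alanine gene next to it moved alike. At tRNA-Ala-TGC-4-1 the wild-type livers had 38.3, 33.5, 38.6 and 28.8 and the Phe11 livers 6.13, 9.36, 5.31 and 5.77. The highest Phe11 value was far under the lowest wild-type one, with a log2 difference of -2.25 ± 0.25 (SE, adjusted p 4.84e-12 by limma, or 0.00234 with no limit on low loci). At the deleted tRNA-Phe-GAA-1-1 the wild-type livers had 18.6, 21.9, 20.9 and 26.7 and the Phe11 livers 3.07, 3.12, 5.31 and 1.24. The log2 difference there was -2.54 ± 0.36 (SE, adjusted p 2.99e-08 by limma, or 0.0208 with no limit on low loci). The Phe11 means at these loci were 6.64 and 3.18, so that both passed the limit of 10 through the wild-type libraries, with means of 33.6 and 22.8. With a pseudocount of 10 the differences were -1.43 and -1.28. Whether the neighbours differed from the deleted gene in size of change was not tested.

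The genes toward lower coordinates had less signal to begin with. At tRNA-Asp-GTC-1-6 the 4 wild-type livers had 14.2, 15.4, 17.7 and 15.4, and the Phe11 livers 8.18, 5.2, 4.43 and 1.24, again without overlap. Its log2 difference was -1.70 ± 0.37 (SE, adjusted p 0.000476 by limma). It was -1.07 in batch 1 alone, where the adjusted p was 0.206, and its mean was under the level needed for a test in batch 2 alone, with replicates 1 and 22 averaged, and without any 1 of the 4 wild-type livers. With no limit on low loci the call did not hold (adjusted p 0.109 by limma). Its mean was 15.6 in wild type and 4.76 in Phe11, so it passed the limit through the wild-type libraries. At tRNA-Ala-TGC-2-1 the wild-type livers had 20.8, 11.6, 14.5 and 7.2 and the Phe11 livers 3.07, 3.12, 3.54 and 2.06. This locus was below the mean of 10 set for the test, and without that limit its log2 difference was -1.81 ± 0.34 (SE, adjusted p 0.0572 by limma). Of all loci tested in Phe11 liver 12.1% were called.

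The summed signal of the 4 neighbours, leaving out tRNA-Phe-GAA-1-1, was 143, 126, 135 and 114 in wild-type liver and 35.8, 31.2, 25.7 and 20.6 in Phe11 liver. The mean was 22.4% of wild type, with a log2 difference of -2.18 (exact two-sided permutation test over 4 against 4 libraries, p = 0.0286, the smallest possible). With wild-type replicates 1 and 22 averaged it was -2.14 (exact two-sided permutation test over 3 against 4 libraries, p = 0.0286, again the smallest possible). It was -1.98 within batch 1 and -2.38 within batch 2, where 2 against 2 libraries allow no p below 0.333.

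In Phe11 brain the change was narrower. The peak that holds the gene, chr5:125404648-125406903, was listed as lower, with an authors' mean of 8.65 in wild type and 8.1 in Phe11, a difference of -0.55. The other 3 peaks within 10 kb were not listed, among them the peak that covers tRNA-Asp-GTC-1-7 and tRNA-Ala-TGC-4-1. Over all peaks of this set 16.3% were listed and 12.2% were listed as lower.

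At the deleted gene the wild-type brains had a normalised count of 106, 101, 121 and 103 and the Phe11 brains 39.9, 40.6, 38.2 and 28.1. The knockout kept 34.0% of the wild-type mean, with no overlap (27.8% of all loci tested in Phe11 brain did not overlap) and a log2 difference of -1.54 ± 0.12 (SE, adjusted p 4.61e-11 by limma). A read that lies wholly within the run shared with other tRNA-Phe genes cannot be told apart from one of another copy, and the number of such reads was not tested.

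The neighbours of the gene in brain moved little or not at all. At tRNA-Ala-TGC-2-1 the wild-type brains had 77.4, 79.2, 93.5 and 82.2 and the Phe11 brains 76.8, 66.5, 60.1 and 60.6, a log2 difference of -0.33 ± 0.11 (SE, adjusted p 0.0228 by limma). At tRNA-Asp-GTC-1-6 the wild-type range was 60.2 to 86.9 and the Phe11 range 44.8 to 64.4, and at tRNA-Asp-GTC-1-7 they were 111 to 154 and 106 to 126. These ranges overlapped. Their log2 differences were -0.35 ± 0.13 and -0.26 ± 0.10 (SE), with adjusted p of 0.0399 and 0.0414 by limma. At tRNA-Ala-TGC-4-1, which fell most at the peak level in liver, the Phe11 brains were at 99.5% of wild type (log2 difference 0.00 ± 0.11, SE).

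The 3 small calls at neighbours in Phe11 brain were weak, since 28.1% of all loci of that table were called. In batch 1 alone 1 locus of the cluster was called, the deleted gene. In batch 2 alone 3 were called, among them tRNA-Ala-TGC-2-1 with -0.53 (adjusted p 0.0143 by limma), which was -0.13 in batch 1. Also in batch 2, tRNA-Asp-GTC-1-7 differed by -0.36 (limma, adjusted p of 0.0236). In 6 fits that each omitted 1 library, namely wild type 16, wild type 18, Phe11 5, Phe11 6, Phe11 13 and Phe11 14, the number called was 1 or 2, and without the limit on low loci it was 1. The summed signal of the 4 neighbours was 376, 382, 365 and 372 in wild-type brain and 329, 339, 303 and 301 in Phe11 brain, with no overlap. It was 85.0% of wild type, a log2 difference of -0.24 (exact two-sided permutation test over 4 against 4 libraries, p = 0.0286, the smallest possible).

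The difference between tissues was tested directly, in a limma fit of both tables with 16 libraries and 204 loci, of which 16 (7.84%) were called. Loci entered it with a mean of at least 10 in each tissue. In liver tRNA-Ala-TGC-4-1, tRNA-Asp-GTC-1-6 and tRNA-Phe-GAA-1-1 passed this limit through the wild-type libraries. Their Phe11 liver means were 6.64, 4.76 and 3.18, beside 33.6, 15.6 and 22.8 in wild type. The fit was not run without the limit. The Phe11 difference in liver was lower than that in brain at tRNA-Ala-TGC-4-1, where the liver minus brain difference was -2.25 ± 0.23 (log2, SE, adjusted p 2.05e-08 by limma). It was -1.92 ± 0.18 (SE) at tRNA-Asp-GTC-1-7 (adjusted p 7.92e-09 by limma) and -1.35 ± 0.36 (SE) at tRNA-Asp-GTC-1-6 (adjusted p 0.0169 by limma). Wild-type livers 1 and 22 both entered this fit. Without liver 1 these values were -2.24, -1.93 and -1.5, and without liver 22 they were -2.14, -1.88 and -1.19, and each passed (the highest adjusted p was 0.0488 by limma). The value at tRNA-Asp-GTC-1-6 did not pass without wild-type brain 1 (adjusted p 0.0545 by limma), without wild-type brain 16 (0.0521) or without Phe11 brain 13 (0.0507). At the deleted gene itself it was -1.0 ± 0.33 (SE), which did not pass (adjusted p 0.0566 by limma). This value passed without Phe11 brain 14 (adjusted p 0.045 by limma) and without Phe11 liver 20 (0.0107), at which it was -1.27.

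**Figure D2:**
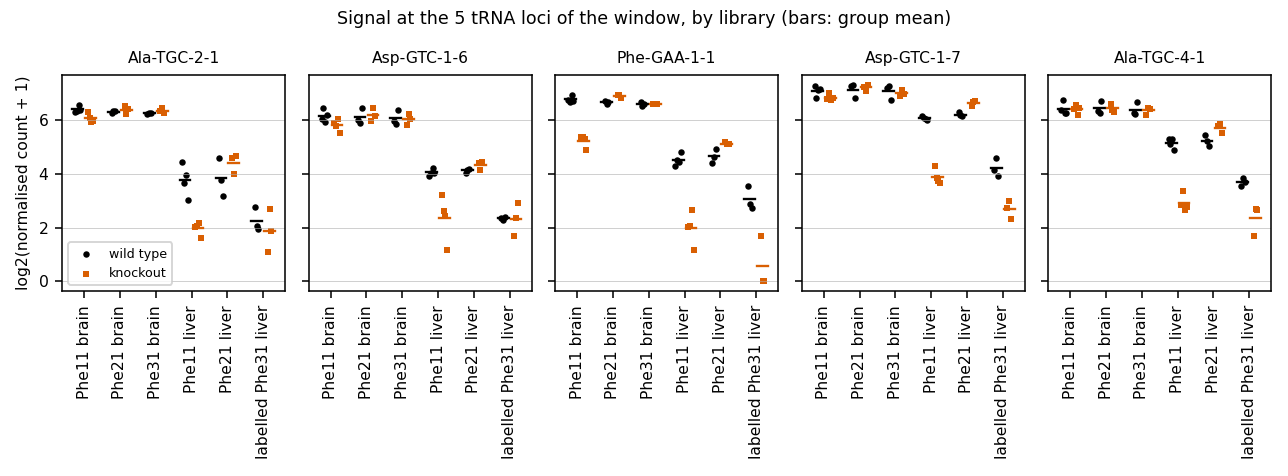
Normalised counts at the 5 tRNA loci of the window as log2(count + 1), in every library of the 6 comparisons. Black circles are wild-type libraries, orange squares knockout libraries and bars group means. In Phe11 liver the knockout lies below wild type at all 5 loci, and in Phe11 brain the groups do not overlap at Phe-GAA-1-1 and Ala-TGC-2-1, where 27.8% of all loci do not overlap.

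In Phe21 and Phe31 brain no peak or locus of the cluster passed its test. The peak that holds the gene was not listed in either, nor was any of the other peaks within 100 kb, which numbered 47 in Phe21 and 44 in Phe31 with the gene peak. Over all peaks 0.711% were listed in Phe21 brain and 0.000465% in Phe31 brain, the latter being a single peak outside the window. None of the 5 loci was called by limma in either comparison, where 0.0% of all loci were called in Phe21 brain (43 of the 253 had an unadjusted p under 0.05, and edgeR and DESeq2 called none of the 5) and 0.775% in Phe31 brain. At tRNA-Phe-GAA-1-1 the Phe21 brains lay between 111 and 119 and their wild types between 94.1 and 104, without overlap (24.1% of the loci of that table did not overlap), and the log2 difference was 0.23 ± 0.10 (SE, adjusted p 0.238 by limma). In Phe31 brain the locus stood at 101% of its wild-type mean, and the log2 difference was 0.02 ± 0.11 (SE).

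In Phe21 liver the listed peak and the called loci of the cluster were higher than in wild type. The knockout column of its peak table, as of those of Phe21 and Phe31 brain, is headed Phe11 and was taken as the knockout from its place. One of the 6 peaks within 10 kb was listed, the peak over tRNA-Asp-GTC-1-7, with an authors' mean of 6.39 in wild type and 6.98 in Phe21, while the peak that holds tRNA-Phe-GAA-1-1 was not. Of all peaks of this set 14.4% were listed. At tRNA-Asp-GTC-1-7 the wild-type livers had a normalised count of 76.4, 71.4 and 69.5 and the Phe21 livers 90.3, 101 and 103, with no overlap, as at 31.3% of all loci of that table, and a log2 difference of 0.43 ± 0.13 (SE, adjusted p 0.0117 by limma). At tRNA-Ala-TGC-4-1 they had 41.8, 36.4 and 31.9 against 53.6, 56.6 and 45.0 (log2 difference 0.49 ± 0.17, SE, adjusted p 0.0404 by limma).

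The summed signal of the 4 neighbours in Phe21 liver came to 135% of the wild-type mean, and the groups did not overlap (exact two-sided permutation test over 3 against 3 libraries, p = 0.1, the smallest possible). The median log2 difference over all 201 loci of that table was 0.10 and 13.4% of them were called. Neither call held in edgeR or DESeq2 on recovered reads, and neither held without wild-type replicate 24, the only library of this table from another batch, or without Phe21 replicate 8 or 9. Without wild-type replicate 3 or Phe21 replicate 7, only 1 locus was called.

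In the liver libraries labelled Phe31 the peak over tRNA-Asp-GTC-1-7 and 2 peaks of the cluster that cover no tRNA gene were lower. The peak over tRNA-Ala-TGC-4-1 was not listed, and no consensus peak covered the other 3 tRNA genes in this set. Of the 7 peaks within 10 kb 3 were listed, all as lower (42.9%), against 12.1% of all peaks of the set listed as lower and 18.9% listed in either direction. The nearest, chr5:125404961-125405428, lay at -0.627 kb, outside the gene, and went from 5.26 to 3.53, a 3.32-fold lower level. That over tRNA-Asp-GTC-1-7 went from 4.59 to 3.41. The listed peak toward Dhx37, 5.94 kb away and without a tRNA gene, went from 6.73 to 5.72, and it lies where the unlisted outermost peak of the Phe11 liver set lies.

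By single libraries, tRNA-Asp-GTC-1-7 had a normalised count of 16.5, 22.7 and 14.2 in wild type and 5.63, 6.87 and 3.97 in the libraries labelled Phe31. The groups did not overlap, as at 23.6% of the 178 loci tested, and the log2 difference was -1.53 ± 0.35 (SE, adjusted p 0.000601 by limma, which called 10.7% of the loci). This call did not hold in DESeq2 (adjusted p 0.123) or in limma with no limit on low loci (adjusted p 0.157), and without wild type b the locus fell under the limit, which it had passed through the wild-type libraries (means 17.8 and 5.49). At tRNA-Ala-TGC-4-1 the values were 10.7, 13.3 and 12.0 in wild type and 2.25, 5.5 and 5.29 in the libraries labelled Phe31, also without overlap. At tRNA-Phe-GAA-1-1 they were 10.7, 6.25 and 5.66 in wild type, and 2.25, 0 and 0. Both loci were under the mean of 10 and did not enter the limma test. With no limit on low loci limma gave -1.35 ± 0.35 at tRNA-Ala-TGC-4-1 and -2.48 ± 0.63 at tRNA-Phe-GAA-1-1 (SE), with an adjusted p of 0.206 at both, which did not pass. With 2 of its 3 knockout values at 0 the size of the latter was set by the pseudocount, at -4.68 with 0.1 and -0.7 with 10. The exact two-sided permutation p over 3 against 3 libraries was 0.1 at tRNA-Phe-GAA-1-1, the smallest possible.

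At the genes on the lower-coordinate side the groups overlapped. At tRNA-Asp-GTC-1-6 they had 2.25, 4.12 and 6.61 against 4.12, 3.91 and 4.25 in wild type, and at tRNA-Ala-TGC-2-1 they had 1.13 to 5.5 against 2.83 to 5.77. In limma with no limit on low loci the log2 differences there were -0.02 ± 0.44 and -0.36 ± 0.57 (SE). The summed signal of the 4 neighbours was 45.7% of wild type, a log2 difference of -1.13 (exact two-sided permutation test over 3 against 3 libraries, p = 0.1, the smallest possible).

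Between 10 and 100 kb the comparisons parted. In Phe11 liver 0 of the 65 peaks at this distance were listed as lower and 3 as higher (4.62%), where 1.95% of all peaks of the set were listed as higher and 4.14% in either direction. The raised peaks were in Gm40325, 60.3 kb from the gene with a difference of 0.5, and in Aacs, at 78.2 kb with 0.86 and at 88.8 kb with 0.53. Of the 46 peaks of the libraries labelled Phe31 at this distance 10 were listed, all as lower (21.7%). Of all peaks of that set 12.1% were listed as lower and 18.9% in either direction. Among the 10 were the peaks that overlap the 3 raised in Phe11 liver. Those differed from wild type by -0.88, -1.15 and -0.84.

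Other lowered peaks of the libraries labelled Phe31 in this range were 2 in Scarb1, at the outer edge of this range with -0.49 and at -74.5 kb with -0.3. One with no gene over it, at -12.3 kb, had -0.55. Further ones were in Gm40325 at 59.0 kb with -0.78 and in Aacs at 84.9 kb with -0.91 and at 99.1 kb with -1.34. On that side the lowered peaks lay between 59.0 and 99.1 kb, with none listed as higher. Unlisted peaks lay among them, such as the one at the Aacs promoter.

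In Phe21 liver 6 of the 54 peaks between 10 and 100 kb were listed (11.1%, beside 14.4% of all peaks), 5 of them as higher (9.26%, beside 7.29%). The raised ones were 0.34 at -12.3 kb, 0.35 at -73.9 kb and 0.55 at -82.4 kb, the last pair in Scarb1, and 0.45 in Aacs at 84.8 kb. The last was at the Dhx37 promoter, 27.6 kb from the gene, with an authors' mean of 6.87 in wild type and 7.32 in Phe21.

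The Dhx37 promoter had a peak in each of the 6 sets and was listed in Phe21 liver alone. It is shown as the nearest protein-coding promoter of the RefSeq table with a listed peak, from chr5:125433999-125434298 of GRCm38.p6 on the strand of the gene, 250 bases before its start to 50 after.
Dhx37 promoter: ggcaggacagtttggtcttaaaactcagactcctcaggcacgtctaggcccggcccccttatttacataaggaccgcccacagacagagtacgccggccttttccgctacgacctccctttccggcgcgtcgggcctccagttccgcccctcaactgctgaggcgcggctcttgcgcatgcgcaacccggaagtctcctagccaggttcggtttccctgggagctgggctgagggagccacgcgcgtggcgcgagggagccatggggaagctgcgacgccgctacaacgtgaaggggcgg
It holds CCGGAAG, a sequence of the kind bound by ETS factors, which 8.86% of the 32851 promoters of that table hold on either strand. The promoters of Bri3bp and Aacs also had a peak in each set, and neither was listed in any.

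In Phe11 brain 7 of the 40 peaks between 10 and 100 kb were listed (17.5%), 6 as lower. They lay in Scarb1 at -91.7 kb with -0.9 and at -64.8 kb with -0.47, in Bri3bp at 43.2 kb with -0.41, in Gm40325 at 59.5 kb with -0.21 and in Aacs at 79.6 kb with -1.42 and at 93.2 kb with -0.81. The raised one was in Scarb1 at -83.8 kb, with 0.34. Within 100 kb, the gene peak included, 15.9% were listed as lower, near the 12.2% of all peaks of the set.

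**Figure D3:**
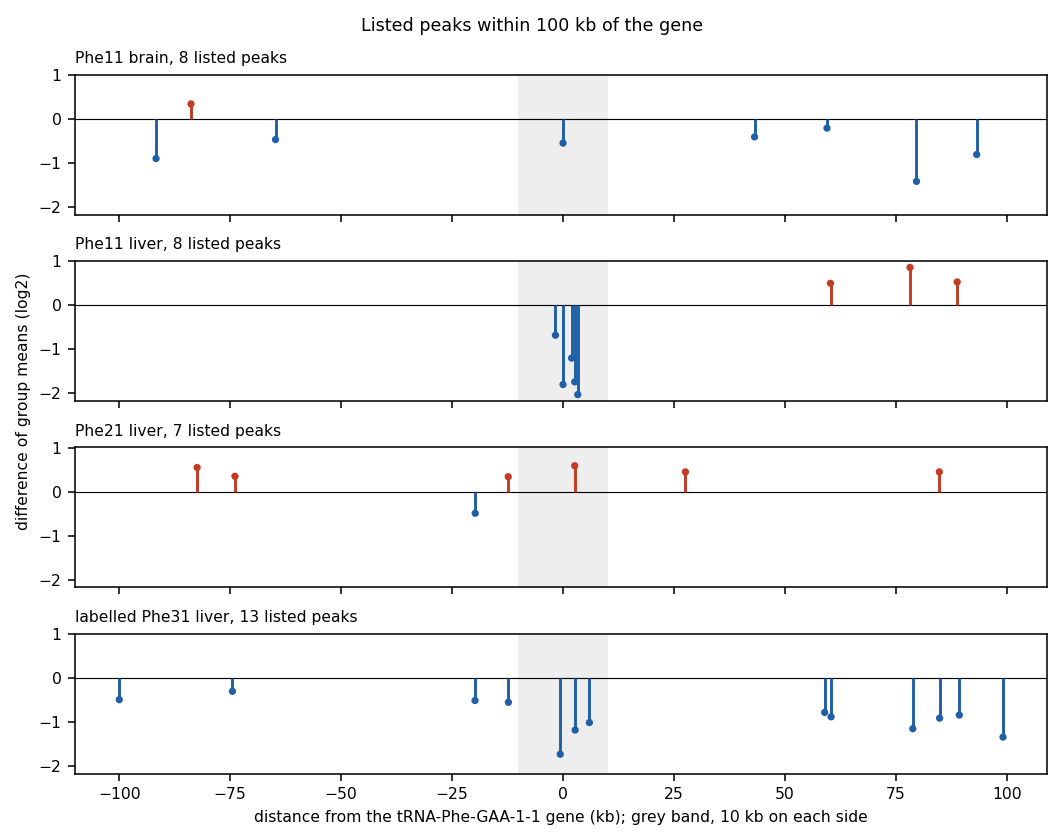
Listed peaks within 100 kb of tRNA-Phe-GAA-1-1 in 4 comparisons, by distance in kb and by the difference of the authors' group means on the log2 scale, knockout minus wild type. The grey band marks 10 kb on each side, where Phe11 liver has 5 lowered peaks and none beyond it.

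Over the whole window the share of listed peaks is to be read beside the share over all peaks of each set given above. For brain it was 14.4% with Phe11 and 0.737% with Phe21, for liver 5.74% with Phe11, 14.6% with Phe21 and 20.2% with the libraries labelled Phe31, and no peak of the window was listed in Phe31 brain. In Phe11 liver the share listed as lower was 71.4% within 10 kb and 4.0% beyond. The 7 listed peaks from 10 to 500 kb were all higher, and the 10 from 500 kb to 2 Mb were all lower. From the nearest to the farthest of the 4 distance classes these were 4.62%, 4.21%, 4.65% and 4.73% of the peaks, the first pair beside 1.95% of all peaks listed as higher and the second beside 2.19% listed as lower. In either direction 4.14% of all peaks were listed, which is near each of the 4 shares.

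In the libraries labelled Phe31, where 12.1% of all peaks were listed as lower, this share was 42.9% within 10 kb. From 10 to 100 kb it was 21.7%, from 100 to 500 kb 16.5% and from 500 kb to 1 Mb 24.3%. It was 7.75% from 1 to 2 Mb and 12.6% beyond. In Phe11 brain, where it was 12.2% over all peaks, the same share was 9.49% from 100 to 500 kb and 12.7% from 500 kb to 1 Mb. It was 10.7% from 1 to 2 Mb and 12.0% beyond. In Phe21 liver, where 7.07% of all peaks were listed as lower, it was 0% within 10 kb, 1.85% from 10 to 100 kb, 6.02% from 100 to 500 kb, 5.0% from 500 kb to 1 Mb, 9.52% from 1 to 2 Mb and 11.8% beyond. With the 100 kb limit the shares listed in either direction were 18.2% for Phe11 brain, then 11.1% for Phe11, 11.7% for Phe21 and 24.5% for the labelled Phe31 among livers.

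**Figure D4:**
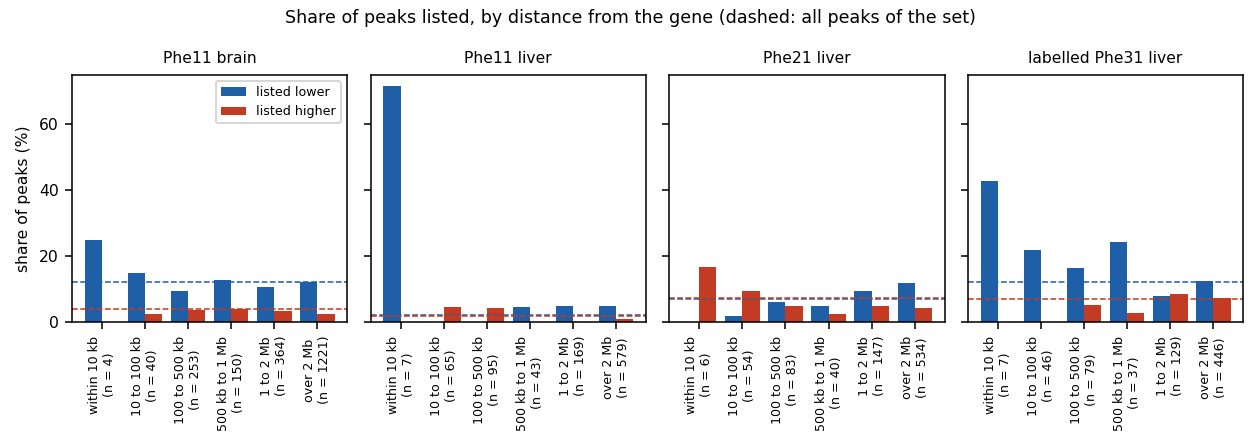
Share of peaks listed as lower (blue bars) and as higher (red bars) by distance from tRNA-Phe-GAA-1-1, in percent, with dashed lines at the shares over all peaks of each set. The number of peaks in each interval is under its bar, and Phe11 liver within 10 kb stands at 71.4% against 2.19%.

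Single peaks far from the gene also changed, and some of the larger differences are given for each comparison. In Phe11 brain the 5 largest falls of the window ran from -2.39 to -2.91, and all lay over 1 Mb away. The largest was in Tmem132c, 1910 kb from the gene, where the authors' mean was 4.22 in wild type and 1.31 in Phe11. Others were near Slc15a4, a lysosomal transporter gene, with -2.41, near Tctn1 with -2.39, in the noncoding gene 4933438B17Rik with -2.4 and in a gene-poor stretch 1020 kb away with -2.61. The peak that holds tRNA-Phe-GAA-1-1, with -0.55, changed less than each of these.

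The 5 largest rises of Phe11 brain were from 0.96 to 1.15. They lay in Rimbp2, a presynaptic scaffold gene, in Gusb, the beta-glucuronidase gene, in Gm40329 and Tmem132b, and 819 kb from the tRNA gene with no gene over them.

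In Phe21 brain 13 peaks were listed, 12 of them as higher, and 8 of the 12 lay at a promoter (66.7%), where 5.56% of the peaks of the window do. The largest rise, near Adgrd1, was from 2.67 to 4.9. Others were in Hip1r with 0.82, in Pptc7 with 0.64 and at the promoter of Kdm2b, a histone demethylase gene, with 0.63. The single fall, -0.7, lay nearest to Rph3a. On the higher-coordinate side the nearest listed peak was at the promoter of Ran, the GTPase of nuclear transport, with 0.37.

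In Phe11 liver 3 of the 5 largest falls of the window were the cluster peaks given above. The other two were next to Gusb, at 4580 kb, with -1.5, and in Brap, at -3740 kb, with -1.31. Among the larger rises were those in Tmem120b with 1.55, from 4.3 to 5.85, in Tpcn1, an endolysosomal cation channel gene, with 0.98, in Aacs with 0.86 and in Orai1, the store-operated calcium channel gene, with 0.82.

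In Phe21 liver the 5 largest falls were from -1.72 to -2.76 and none was in the cluster. They lay in Rimbp2 with -2.76, near Scarb1, at -133 kb, with -2.59, over Sds and Plbd2 with -1.86, in Rad9b with -1.84 and in Tpcn1 with -1.72. The rises were smaller, from 0.69 to 0.78, in Tpcn1, in P2rx7, an ATP-gated channel gene, in Pitpnm2 and Glt1d1 and 1160 kb away with no gene over it.

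In the libraries labelled Phe31 the 5 largest falls included the peak next to the tRNA-Phe gene, with -1.73. The others were in Tmem120b with -2.58, in Hectd4 with -2.49, near Hcar2, a hydroxycarboxylic acid receptor gene, with -1.75 and in Orai1 with -1.69. The 5 largest rises were from 1.59 to 1.86, of which 3 were over Sds, the serine dehydratase gene, 1 in Tpcn1 and 1 next to Setd1b, a histone methyltransferase gene.

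**Figure D5:**
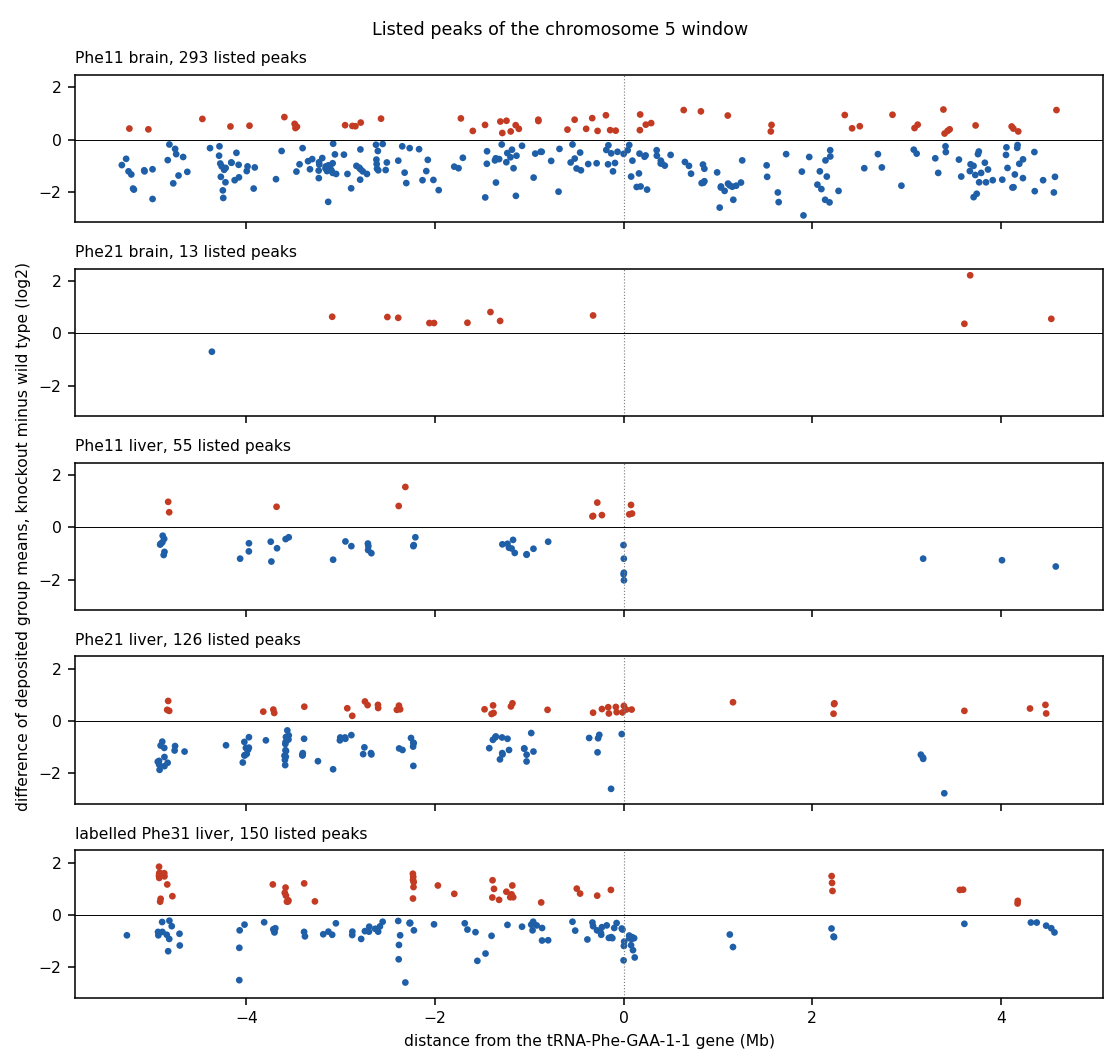
Every listed peak of the window in 5 comparisons, by signed distance from tRNA-Phe-GAA-1-1 in Mb and by the difference of the authors' group means on the log2 scale (red higher, blue lower in the knockout). Phe31 brain had none. The lowered peaks at distance 0 in Phe11 liver reach -2.03, and the falls beyond 10 kb reach -1.5.

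The liver sets were then compared peak by peak. The libraries labelled Phe31 had wild types of their own, so that no library was shared with the Phe11 or Phe21 liver comparisons. Of the 55 listed peaks of Phe11 liver 22 (40%, beside 36.2% over all chromosomes) overlapped a listed peak of the libraries labelled Phe31, and 26 of the 150 of that list (17.3%, beside 10.9%) overlapped one of Phe11 liver. In these 26 overlapping pairs the direction was opposite in 21 (80.8%), beside 82.2% of the 2089 pairs over all chromosomes. The 5 pairs with the same direction were all lower, and 2 of them were in the tRNA cluster, at the Phe11 peak that holds tRNA-Phe-GAA-1-1 (-1.8) with the shorter peak beside the gene in the libraries labelled Phe31 (-1.73) and at tRNA-Asp-GTC-1-7 (-1.74 and -1.18). The other 3 were in Slc8b1, Pitpnm2 and Tctn2.

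With Phe21 liver the direction was opposite in 42 of 46 pairs (91.3%, beside 89.0% of the 5208 pairs over all chromosomes), and here the peak at tRNA-Asp-GTC-1-7 was among the opposite ones, with 0.59 in Phe21 and -1.18 in the libraries labelled Phe31. The 4 pairs with the same direction were all lower, among them pairs in Cux2, Pitpnm2 and Sbno1.

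The distant peaks with opposite directions gathered at a few liver genes. Hpd encodes the dioxygenase that acts on hydroxyphenylpyruvate in the breakdown of tyrosine, and lies at -2230 kb. Its region was lower in Phe11 liver, with -0.72 and -0.68 at its 2 listed peaks, and in Phe21 liver, with -0.97, -0.82, -1.71 and -0.84. In the libraries labelled Phe31 the listed peaks over Hpd were 0.64, 1.35, 1.47, 1.08 and 1.27 higher and 1 was lower, with -0.58. Phe11 and Phe21 liver share wild-type libraries.

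Sds lies at -4920 kb. In Phe21 liver its listed peaks differed by -1.52, -1.66 and -1.86. In the libraries labelled Phe31 they differed by 1.51, 1.86, 1.59, 1.43 and 1.63, and in Phe11 liver none was listed. At Tmem120b a peak was higher in Phe11 liver, by 1.55, and lower in the libraries labelled Phe31, by -2.58, and at Orai1 the values were 0.82 and -1.69.

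The listed peaks of brain and liver were also compared. Of the 293 listed in the window in Phe11 brain 4 (1.37%) overlapped a listed peak of Phe11 liver, of which there were 55 (7.27%). The shares over all chromosomes were not counted for this pair. At 2 of the 4 both were lower. One was the peak that holds tRNA-Phe-GAA-1-1, with -0.55 in brain and -1.8 in liver, and the other lay in Rad9b, with -0.16 and -1.24. The pairs with opposite directions were in Aacs, with -1.42 in brain and 0.86 in liver, and over Arl6ip4 and its neighbours, with 0.25 and -0.65. Of all 958 window peaks of the Phe11 liver set 531 (55.4%) overlapped a peak of the Phe11 brain set by at least 1 base. In the other direction 555 of the 2032 window peaks of Phe11 brain (27.3%) overlapped any peak of Phe11 liver.

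The share of peaks at promoters was counted as a description. A peak was counted at a promoter when it overlapped the stretch from 250 bases before to 50 bases after a start in RefSeq. In Phe11 liver none of the 55 listed peaks was at a promoter, where 9.29% of the 958 peaks of the window were. For the libraries labelled Phe31, 22 of the 101 lowered peaks (21.8%) and 1 of the 49 raised peaks (2.04%) were at a promoter, beside 11.8% of the 744 peaks of the window. In Phe21 liver the shares were 4.71% of the 85 lowered and 14.6% of the 41 raised peaks, beside 10.3%. The tRNA genes are not in this promoter table.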

How the data were processed

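Peaks were the nucleosome-free ATAC-seq regions (fragments of at most 175 nt) that the authors called with Genrich 0.6 and compared with DiffBind 3.0.8. The deposited group means of peaks are log2 values, and the deposited tables also hold the authors' fold and p-values, which were not used. In 3 of these tables, those of Phe21 brain, Phe31 brain and Phe21 liver, the column of the knockout mean is headed Phe11, and it was taken as the knockout of its table from its place beside the wild-type mean. The score in the deposited consensus lists was not used. At tRNA loci the deposited signal is a read count, taken with featureCounts 2.0.0 over the gene with 50 bases on each side, that the authors divided by a size factor of DESeq2 1.30.0 in each table. Alignment was to GRCm38.p6 with Bowtie2 2.4.1, per the labels.

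Peaks were joined to listed peaks by exact coordinates, and distance was taken from the nearest edge. Gene names and positions came from RefSeq (GRCm38.p6), and the guide and the allele from the study's supplementary list, matched to GRCm39. The names of the 5 tRNA loci were tied to RefSeq genes through anticodon and order along the locus. Loci with a mean of at least 10 were tested with limma 3.58.1 in R 4.3.3 on log2(value + 1), with trend, two-sided, Benjamini-Hochberg adjusted over all loci of the table at 0.05, and with batch as a term in Phe11. A fold on this scale understates the change of low loci. Whole reads were recovered in 4 tables (100% of values within 0.05 of a whole number), on which edgeR 4.0.16 and DESeq2 1.42.0 were alternatives. The fit was tested on simulated data.

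Named peaks were those within 100 kb that were listed, the nearest listed peak on each side, and the 5 largest falls and rises of each comparison with over 10 listed peaks. Some named peaks are not reported here. The members and these lists were chosen with earlier results of these data known. The liver columns labelled Phe31 carry no sample number and are libraries a, b and c of each group. The limma p-values rest on the spread between the libraries of a group, which limma pools in part over all loci tested. They therefore change with the set of loci tested. Read depth limits the precision at low loci. Genes for the tissue check were chosen by hand. The alternatives are in the closing section.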

Additional observations from a re-analysis of the deposited data

Results flagged for a closer look

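The Phe11 difference from wild type differed between liver and brain at 3 loci of the tRNA cluster in the joint limma fit, which called 16 of 204 loci. The liver difference minus the brain difference was -2.25 on the log2 scale at tRNA-Ala-TGC-4-1, -1.92 at tRNA-Asp-GTC-1-7 and -1.35 at tRNA-Asp-GTC-1-6. In liver the first and the third passed the limit on low loci through the wild-type libraries (Phe11 means 6.64 and 4.76). The third was not called without wild-type brain 1, wild-type brain 16 or Phe11 brain 13 (adjusted p 0.0545, 0.0521 and 0.0507 by limma). The first was 19.8% of wild type in liver and 99.5% in brain, the second 21.4% and 83.1%, and the third 30.5% and 78.0%. The cause was not tested.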

How the results depend on the processing

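Most values kept their direction and their side of the threshold. Among the main values of the comparisons 292 alternatives kept the direction and the side of the threshold, or left a share within its 95% interval or a count within 1.5 times, 29 moved a value by more than its spread or a count by over 1.5 times, 11 lost a call, 3 gained one and 2 turned a direction. Shares within the wider limit moved when peaks had to differ by at least 1 on the log2 scale, to 2.27% in Phe11 brain and, among livers, to 5.56% for Phe11, 0.0% for Phe21 and 9.43% for the labelled Phe31, within 50 kb, to 11.1% in Phe11 brain and 18.5% in Phe11 liver, and with a 10 kb limit, chosen after the data were seen, to 71.4% in Phe11 liver and 42.9% in the libraries labelled Phe31. Some that kept the call still changed in size, as tRNA-Phe-GAA-1-1 did with a pseudocount of 10, at -1.28 in Phe11 liver and -0.7 in the libraries labelled Phe31, where 0.1 gave -4.68. Within batches, where 2 against 2 libraries cannot pass, tRNA-Phe-GAA-1-1 was -1.34 and -1.74 in Phe11 brain and -2.37 and -2.71 in Phe11 liver, and the summed neighbours -0.18 and -0.29 in brain and -1.98 and -2.38 in liver. The number of the 5 loci called in Phe11 brain, 4, was 1 with no filter, 2 with equal library totals, 1 in batch 1 alone, 3 in batch 2 alone and 1 to 3 with 1 library left out. In Phe11 liver it was 3 with no filter, in either batch alone or without any 1 wild-type library, and went from 4 to 1 with a mean of at least 30, which leaves fewer loci to test. In Phe21 liver it went from 2 to 0 with no filter, edgeR or DESeq2, to 1 with a mean of at least 30 or equal totals, and to 0 to 3 with 1 library left out. In the libraries labelled Phe31 it went from 1 to 0 with no filter, DESeq2, a mean of at least 30 or without wild type b, and lay between 0 and 1 with 1 library left out. Where not said otherwise the cause was not tested.

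The difference between liver and brain at tRNA-Phe-GAA-1-1 passed without a batch term, at -1.0 (adjusted p 0.0414 by limma), and lay between -1.27 and -0.67 with 1 library left out. That at tRNA-Asp-GTC-1-6 lay between -1.59 and -0.97. The mouse number did not pair the tissues, since the correlation of the deviations over 6 mice ran from -0.0701 to 0.0899. With the mouse number as a replicate block, also chosen after the data were seen, the differences were -2.25, -1.92, -1.34 and -0.99 and no call changed.

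Directions that turned were all of uncalled values in brain. In Phe31 brain tRNA-Phe-GAA-1-1 lay between -0.02 and 0.05 with 1 library left out, and the summed neighbours between -0.09 and 0.03. In Phe21 brain tRNA-Ala-TGC-4-1 was 0.01 with TMM scaling and lay between -0.09 and 0.13 with 1 library left out, tRNA-Asp-GTC-1-6 between -0.07 and 0.24 and tRNA-Asp-GTC-1-7 between -0.07 and 0.19. In Phe31 brain these were between -0.11 and 0.12, between -0.14 and 0.13 and between -0.24 and 0.02. Count models were not run for Phe11 and Phe31 brain, where whole reads were not recovered from every column. Low read numbers limit the liver loci, and single-library values were not given for peaks.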
